A study of Arabidopsis thaliana with 9 samples.

Results

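The genes described here are 10 loci of flavonoid metabolism, chosen by locus from the 37336 loci of a count table. They are 5 MYB transcription factor genes, PAP1, PAP2, MYB11, MYB12 and MYB111, and 5 enzyme genes, CHS, CHI, F3H, FLS1 and DFR. All 10 were found in the table, and 9 passed the filter on low counts. The samples were whole seedlings of wild-type (WT, Col-0) Arabidopsis thaliana. Seedlings 3 days after germination had been moved to 3 ml of liquid Murashige and Skoog medium for 7 days at 22 °C, in 16 h of light and 8 h of dark. They were then kept for 3 h in fresh medium with 0.1% DMSO (mock, 3 libraries) or with 10 µM abscisic acid (ABA, 3 libraries). ABA is a hormone of dormant seeds and of plants short of water. Whether the ABA medium held DMSO is not stated. Another group, given 10 µM of a compound called iCB, was not analysed here because the names of 3 columns of the table match no sample label. The replicates are described as independent biological ones.

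Flavonoids are made from phenylalanine. Chalcone synthase, chalcone isomerase and flavanone 3-hydroxylase build a common precursor, at which the pathway parts. Flavonol synthase leads to flavonols, colourless sunscreens, and dihydroflavonol reductase leads to anthocyanins, the red and purple pigments of stressed leaves. In Arabidopsis, MYB11, MYB12 and MYB111 switch on the early enzymes and flavonol synthase. PAP1 and PAP2 work with bHLH proteins and the WD-repeat protein TTG1 to switch on the anthocyanin branch.

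The mock libraries held 21585450 to 22528897 counts each, and the ABA libraries 22449479 to 22722904. Levels are CPM, counts relative to library size, after scaling by trimmed mean of M values (TMM), as mean ± SD. Fold changes are ABA minus mock on the log2 scale, with their standard error (SE) and the adjusted p of edgeR's quasi-likelihood test over 21092 loci. A gene was called at an adjusted p below 0.05. Mock replicate 3 stood apart for PAP1, DFR and several other anthocyanin genes, so results that rest on it are given with and without it. It also differed from the other mock libraries in root and epidermis markers, as given below. In whole seedlings, fewer cells of a type and less RNA per cell cannot be told apart.

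With ABA, both anthocyanin regulators and F3H were higher, and both abundant flavonol regulators were lower. CHS, CHI and FLS1 had log2 fold changes between -0.12 and 0.14 and were not called, although CHI and FLS1 were called lower with library totals and with upper-quartile factors. Of the 9 tested members, 3 were called higher (33.3%) and 2 lower (22.2%). Over all tested loci 31.0% were called higher and 29.4% lower, 60.4% in all, so the number of members called was near the background. The median log2 fold change was 0.14 over the 9 members and -0.01 over all tested loci. The groups did not overlap for 6 of the 9 (66.7%), against 67.9% of all tested loci. Of the 9, ABA was higher without overlap in 4 and lower without overlap in 2. Of all tested loci, ABA was higher without overlap in 34.5% and lower without overlap in 33.4%. The directions rest in part on the scaling: with library totals alone all fold changes moved by -0.23 (median), 21.2% of loci were called higher and 44.8% lower, and 3 members were called higher and 4 lower.

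**Figure D1:**
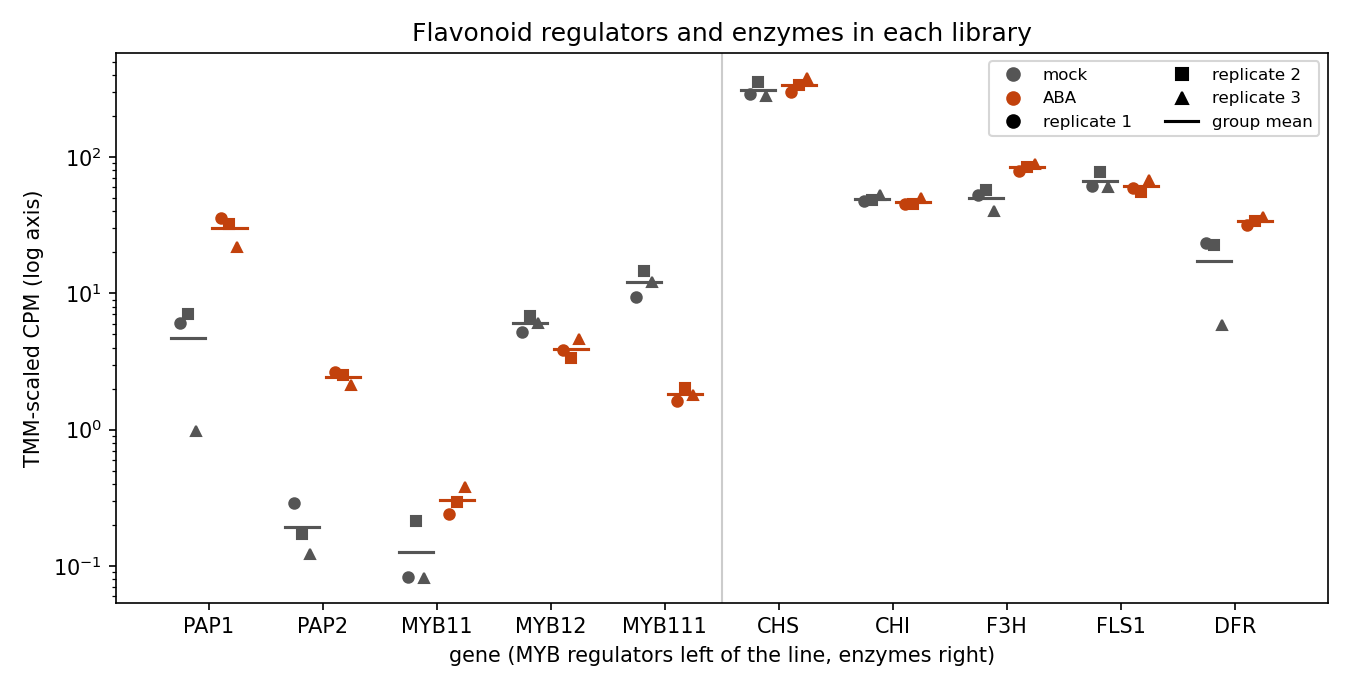
Level of each gene in each library, as TMM-scaled CPM on a log axis; symbols are replicates and bars group means. PAP1, PAP2, F3H and DFR lie higher in all 3 ABA libraries, MYB12 and MYB111 lower, and the groups overlap for CHS, CHI and FLS1. MYB11, which did not pass the filter, also lies higher in all 3 ABA libraries, on few counts.

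PAP1 (AT1G56650, also MYB75) is the main anthocyanin regulator of seedlings. It stood at 6.08, 7.08 and 0.984 CPM in mock replicates 1 to 3, and at 35.9, 32.2 and 21.8 CPM in the ABA libraries. The groups did not overlap, and mock replicate 3 lay far below the other mock libraries. PAP1 rose from 4.71 ± 3.27 to 29.96 ± 7.33 CPM (SD, n = 3), a log2 fold change of 2.67 ± 0.63 (adjusted p = 0.0171). Without mock replicate 3 the value was 2.17 (adjusted p = 5.88e-04), and without ABA replicate 1 it was 2.50 and not called (adjusted p = 0.0561).

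PAP2 (AT1G66390, also MYB90) is a close relative of PAP1 with an overlapping role. It held 7, 4 and 3 counts in the mock libraries and 55, 51 and 45 in the ABA libraries. That is 0.289, 0.171 and 0.123 CPM against 2.63, 2.50 and 2.13 CPM, with every ABA library above every mock library. PAP2 rose by 3.60 ± 0.31 on the log2 scale, or 12.1-fold (adjusted p = 1.50e-05). With 14 counts over the mock group this SE is too small: counting error alone gives 0.40, and a 95% interval of the ratio of 7.19 to 23.3. Of its exonic stretches of 50 bases, 4.44% also occur in the neighbouring gene MYB114, where the authors' treatment of reads with several matches is not given in the sources used here. PAP1 shares no such stretch with another locus.

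MYB111 (AT5G49330), a flavonol regulator, had the largest fall of the 9 tested members. It stood at 9.34, 14.6 and 12.2 CPM in mock and at 1.62, 2.01 and 1.80 CPM in ABA. The lowest mock library lay far above the highest ABA library. MYB111 fell by 2.73 ± 0.19 on the log2 scale, or 6.63-fold (adjusted p = 4.26e-06). Its log2 fold change lay between -2.96 and -2.57 under all 16 alternatives, of which the stricter thresholds reuse the main fit.

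MYB12 (AT2G47460), which acts beside MYB111 and mainly in the root, fell less. Its levels were 5.17, 6.86 and 6.07 CPM in mock and 3.82, 3.33 and 4.64 CPM in ABA. The groups did not overlap, but the highest ABA library came close to the lowest mock library. MYB12 fell by 0.62 ± 0.17 on the log2 scale (adjusted p = 0.0116).

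MYB11 (AT3G62610), a flavonol regulator of the same family, was near the limit of detection. It held 2, 5 and 2 counts in mock and 5, 6 and 8 in ABA, and did not pass the filter. In CPM the groups did not overlap, with at most 0.213 in mock and at least 0.239 in ABA. The libraries that held these 2 values had 5 counts each. The ratio of ABA to mock was 2.43, with an exact 95% interval of 1.05 to 6.11 that covers counting error only. Tested with no filter it was not called (log2 fold change 1.23 ± 0.60, adjusted p = 0.112).

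The 250 bases before the annotated start of PAP1, PAP2, MYB12, MYB111 and DFR are shown, since these are the regulators that changed and the anthocyanin enzyme gene below. They were read from the RefSeq genome of build TAIR10.1, 5′ to 3′ on the strand of the gene. PAP1 is at chr1:21235293-21235542 on the minus strand, PAP2 at chr1:24763691-24763940 on the plus strand, MYB12 at chr2:19476076-19476325 on the plus strand, MYB111 at chr5:20001573-20001822 on the minus strand and DFR at chr5:17166033-17166282 on the minus strand. Capitals mark ACGTG on either strand, the core of the ABA response element, and with it the G-box CACGTG that contains it.
PAP1: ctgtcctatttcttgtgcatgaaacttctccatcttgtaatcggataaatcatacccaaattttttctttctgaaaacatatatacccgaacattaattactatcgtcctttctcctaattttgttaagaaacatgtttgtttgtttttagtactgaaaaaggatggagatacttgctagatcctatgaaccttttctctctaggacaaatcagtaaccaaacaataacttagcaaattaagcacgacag
PAP2: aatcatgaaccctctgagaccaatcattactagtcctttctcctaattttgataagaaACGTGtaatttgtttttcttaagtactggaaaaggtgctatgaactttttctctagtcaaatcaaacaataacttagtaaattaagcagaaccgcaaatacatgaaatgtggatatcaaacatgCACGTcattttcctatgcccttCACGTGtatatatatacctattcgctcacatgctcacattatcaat
MYB12: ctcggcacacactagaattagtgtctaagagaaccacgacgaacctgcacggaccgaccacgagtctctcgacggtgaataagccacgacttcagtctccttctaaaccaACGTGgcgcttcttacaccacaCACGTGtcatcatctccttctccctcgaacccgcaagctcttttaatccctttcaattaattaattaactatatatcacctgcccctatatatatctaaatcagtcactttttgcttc
MYB111: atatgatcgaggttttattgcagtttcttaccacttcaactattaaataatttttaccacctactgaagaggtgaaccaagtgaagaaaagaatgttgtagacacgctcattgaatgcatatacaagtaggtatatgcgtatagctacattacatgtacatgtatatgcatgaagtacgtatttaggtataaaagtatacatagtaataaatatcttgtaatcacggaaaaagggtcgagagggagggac
DFR: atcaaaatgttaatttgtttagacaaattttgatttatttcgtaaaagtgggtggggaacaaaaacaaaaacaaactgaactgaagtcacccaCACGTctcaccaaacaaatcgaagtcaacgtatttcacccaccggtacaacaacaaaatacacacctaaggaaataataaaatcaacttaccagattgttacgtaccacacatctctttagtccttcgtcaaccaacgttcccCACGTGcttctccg

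These windows differed in the letters they hold. PAP2, which rose, and MYB12, which fell, each hold a G-box, starting 46 and 118 bases before the start, and DFR holds one 14 bases before it. No ACGTG lies in the windows of PAP1 or MYB111. Over all 10 members the G-box was found in 5 windows (CHS, DFR, F3H, MYB12 and PAP2) and ACGTG in 6, the same genes and MYB11. Of 27438 promoters of this length, 6.49% hold the G-box and 22.9% ACGTG; each G-box counts as a match of ACGTG too. The AC elements, sites of the MYB class, were searched on both strands in the exact forms below and found in none of the 10. Other forms were not searched, so sites that differ by a letter would be missed. Of all promoters, ACCTACC was in 1.16%, the form ACCAACC was in 2.69%, and the form ACCTAAC was in 2.46%. A match of letters does not show that a factor binds there.

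**Figure D2:**
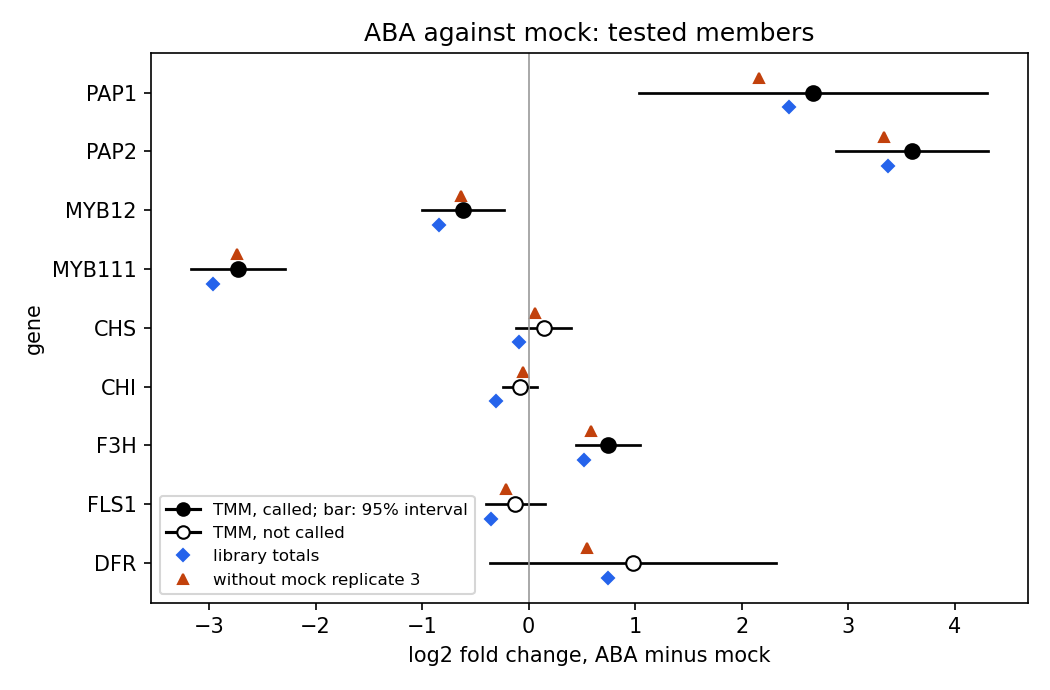
Log2 fold change of ABA against mock for the 9 tested genes, with the 95% interval (bar), and the values with library totals and without mock replicate 3. PAP1, PAP2 and F3H lie above 0, MYB12 and MYB111 below it, and the interval of DFR runs from -0.37 to 2.32.

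CHS (AT5G13930) encodes chalcone synthase, the entry enzyme, and had the highest level of the members. It stood at 291, 353 and 279 CPM in mock and 302, 337 and 380.4 CPM in ABA, so the groups overlapped. Its log2 fold change was 0.14 ± 0.11, with a 95% interval of -0.12 to 0.40 (adjusted p = 0.305). With library totals it was -0.09 and with upper-quartile factors -0.07, neither called.

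CHI (AT3G55120), the chalcone isomerase gene, differed little between libraries. Its levels were 47.5, 48.5 and 52.7 CPM in mock and 45.6, 45.1 and 50.01 CPM in ABA. The log2 fold change was -0.08 ± 0.07, with an interval of -0.24 to 0.08 (adjusted p = 0.355). With library totals it was called lower at -0.31 (adjusted p = 4.98e-03), and with upper-quartile factors at -0.29.

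F3H (AT3G51240), for flavanone 3-hydroxylase, was the enzyme gene that rose. It stood at 52.7, 57.8 and 39.9 CPM in mock and at 79.2, 84.4 and 88.5 CPM in ABA, with no overlap. F3H rose by 0.75 ± 0.13 on the log2 scale, or 1.68-fold (adjusted p = 1.53e-03), and by 0.59 without mock replicate 3. A non-coding locus on the opposite strand, AT3G51238, covers 93.2% of its exonic stretches of 50 bases. That locus held 72 to 91 counts in mock and 110 to 152 in ABA, which is 5.89% to 8.81% of the F3H count of the same library. The library kit marks strand, per the labels, but whether the counting used it is not given in the sources used here; without it the reads of the pair cannot be told apart.

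FLS1 (AT5G08640), for the main flavonol synthase, was not called, unlike MYB111. It stood at 60.9, 78.1 and 60.3 CPM in mock and at 59.2, 55.5 and 68.1 CPM in ABA, and the groups overlapped. The log2 fold change was -0.12 ± 0.12, with an interval of -0.40 to 0.15 (adjusted p = 0.396). It was called lower with library totals at -0.35 (adjusted p = 0.0361) and with upper-quartile factors at -0.33.

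DFR (AT5G42800), for dihydroflavonol reductase, opens the anthocyanin branch. It stood at 23.5, 22.5 and 5.86 CPM in mock and at 31.6, 34.0 and 36.4 CPM in ABA. Every ABA library was above every mock library, and mock replicate 3 lay well below both other mock libraries. DFR had a log2 fold change of 0.98 ± 0.52, which passed no test with all 6 libraries (adjusted p = 0.166 in edgeR, 0.154 in DESeq2, 0.118 in limma-voom). Without mock replicate 3 the change was smaller, 0.54, and was called (adjusted p = 5.66e-04).

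Levels were compared between genes per kilobase of exon. In mock, CHS stood at 181 ± 23.3 CPM per kilobase, above CHI at 44.6 ± 2.49, FLS1 at 41.1 ± 6.23 and F3H at 33.2 ± 6.10, of which neighbours overlapped. DFR followed at 11.4 ± 6.52, MYB111 at 7.37 ± 1.61, PAP1 at 4.25 ± 2.95 and MYB12 at 3.81 ± 0.54, again with overlap between neighbours. Without mock replicate 3, DFR (15.5 and 14.8) lay above MYB111 (5.72 and 8.93) with no overlap. PAP1 (5.48 and 6.38) then lay above MYB12 (3.26 and 4.34), while MYB111 and PAP1 still overlapped. PAP2 and MYB11 were below the rest at 0.19 ± 0.09 and 0.09 ± 0.05 and overlapped each other. On these few counts, that overlap too rests on mock replicate 3. In ABA the order of the regulators changed. PAP1 reached 27.0 ± 6.61 CPM per kilobase, a level that overlapped that of DFR (22.4 ± 1.55), while MYB111 stood at 1.11 ± 0.12, below MYB12 (2.48 ± 0.42) and PAP2 (2.41 ± 0.26). F3H, at 55.7 ± 3.08, was above CHI and FLS1 without overlap.

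Several anthocyanin genes, but not all of those measured, were low in mock replicate 3. Against the mean of the other mock libraries, on the log2 scale with 0.1 CPM added, PAP1 stood at -2.62 and DFR at -1.95 there. Of all tested loci, 0.0996% and 0.284% were as low as these, and 2.13% were at or below -1. LDOX, for the enzyme after DFR, stood at -1.76, GSTF12 (TT19), a carrier of anthocyanins to the vacuole, at -1.96, and TT8, for the bHLH partner of PAP1, at -1.44. UGT79B1 and 5MAT, whose enzymes add xylose and malonate to anthocyanins, stood at -1.89 and -1.63. These last 5 genes were picked after their values were seen, because they were low. Other genes tied to anthocyanins were less low or not low: SCPL10 stood at -0.96 and BGLU10 at 0.35. PAP2 stood at -0.57, where 6.91% of loci were as low, but it held only 7, 4 and 3 counts in the mock libraries. The added 0.1 CPM is close to its level of 0.123 CPM in mock replicate 3 and shrinks this value. PAP2 thus cannot be told from the low genes. MYB12 stood at 0.01, MYB111 at 0.03, CHI at 0.13, CHS at -0.21, FLS1 at -0.20 and F3H at -0.47. How much of this lies between plants was not tested.

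**Figure D3:**
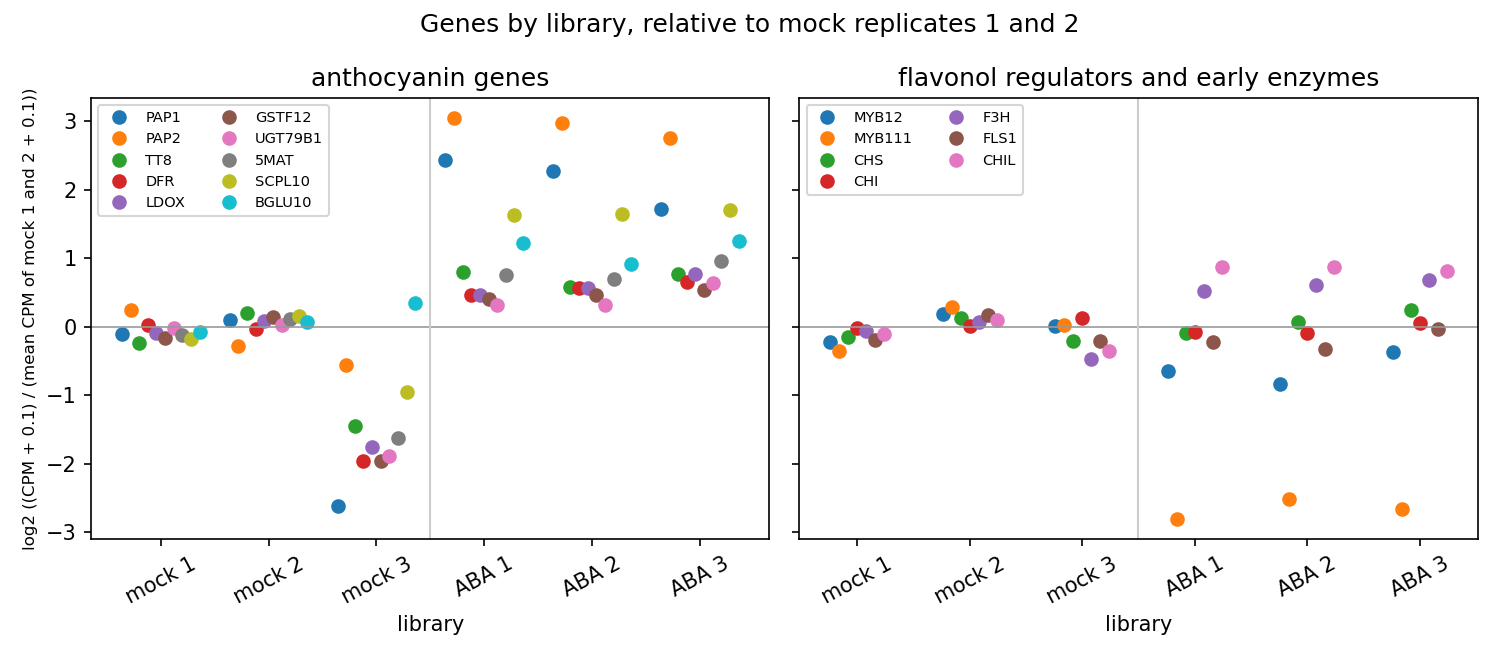
Each point is a gene in a library, as the log2 ratio of its CPM to the mean of mock replicates 1 and 2, with 0.1 CPM added to both. In mock replicate 3, 7 of the 10 anthocyanin genes (left) lie between -2.62 and -1.44, and SCPL10, PAP2 and BGLU10 lie at -0.96, -0.57 and 0.35. The value of PAP2 rests on few counts and is shrunk by the added 0.1 CPM. The 7 flavonol regulators and early enzymes (right) lie between -0.47 and 0.13. The genes of both panels were picked after their values were seen, some of those on the left because they were low. The 7 of 10 is thus no share of all anthocyanin genes. Genes left out of the left panel lie both within that range and above it.

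Without mock replicate 3, several of these genes were called with smaller changes. Such fits rest on mock replicates 1 and 2 alone. LDOX, GSTF12, UGT79B1, TT8 and 5MAT were picked for being low in the library left out. Their calls without it were favoured by that choice and are no separate evidence. LDOX had a log2 fold change of 1.00 ± 0.47 with all libraries (adjusted p = 0.123) and rose by 0.59 without that library (adjusted p = 1.82e-03). GSTF12 went from 0.89 ± 0.52 (adjusted p = 0.203) to a called 0.45 (adjusted p = 5.38e-03). UGT79B1 went from 0.85 ± 0.49 (adjusted p = 0.192) to a called 0.42 (adjusted p = 0.0240). TT8 (1.09 ± 0.36, adjusted p = 0.0369) and 5MAT (1.197 ± 0.408, adjusted p = 0.0447) were called with all libraries, and stood at 0.71 and 0.80 without it. Leaving out any library but mock replicate 2 or 3 ended the call of TT8 and of 5MAT. Both calls were also lost with library totals (adjusted p = 0.0759 and 0.0787 in edgeR), with upper-quartile factors and with no filter, and that of 5MAT with the replicate number as a block (adjusted p = 0.0764).

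Ratios within a library do not depend on scaling, so they were compared between groups with an exact two-sided permutation test. With 3 against 3 it cannot give a p below 0.1, and 4 ratios of counts per kilobase were computed. The ratio of FLS1 to DFR, at the fork of the pathway, had log2 values of 1.28, 1.71 and 3.27 in mock and 0.81, 0.62 and 0.81 in ABA. All ABA libraries lay below all mock libraries, by a mean of -1.34 (exact p = 0.1, adjusted p = 0.2) or -0.75 without mock replicate 3. FLS1 thus exceeded DFR in all 6 libraries, by less in ABA.

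The ratio of MYB12 to MYB111 turned over. Its log2 values were -0.81, -1.04 and -0.96 in mock and 1.28, 0.77 and 1.41 in ABA, so MYB111 was the more abundant per kilobase in every mock library and MYB12 in every ABA library. The mean difference was 2.09 (exact p = 0.1, adjusted p = 0.2). The groups overlapped for PAP2 to PAP1 (means of -4.11 ± 1.19 in mock and -3.46 ± 0.22 in ABA, exact p = 0.5). Without mock replicate 3 the groups of PAP2 to PAP1 did not overlap, and the difference was 1.28 in place of 0.65 (exact p = 0.1, the smallest that 2 against 3 allow). With all libraries the groups also overlapped for CHS to CHI (2.01 ± 0.23 and 2.24 ± 0.11, exact p = 0.2).

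**Figure D4:**
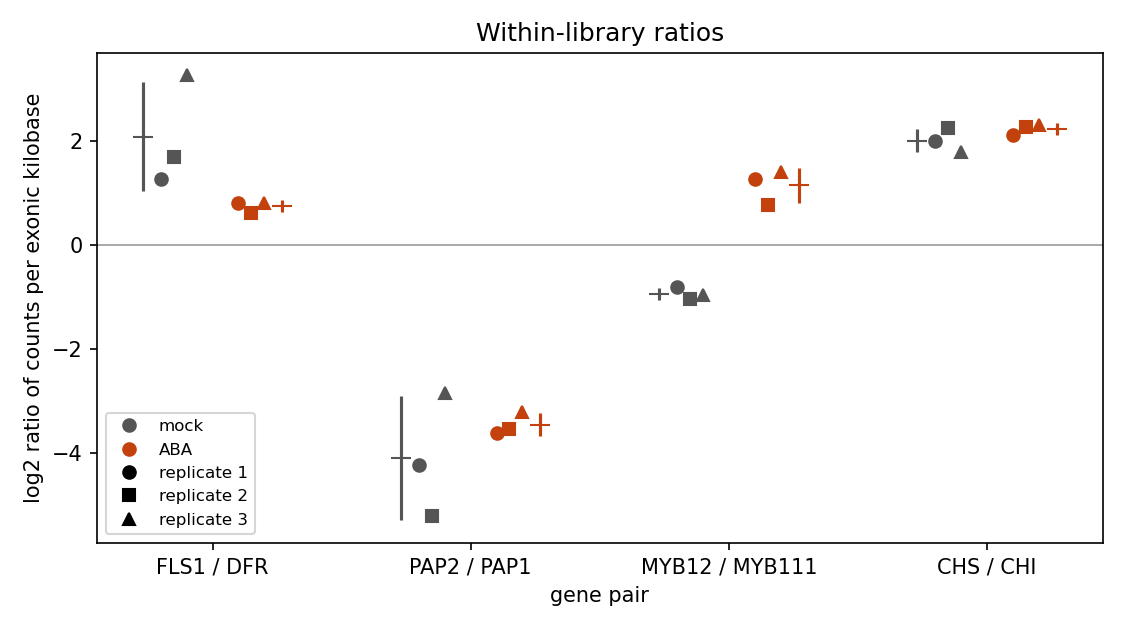
Log2 ratio of counts per exonic kilobase for 4 gene pairs in each library, with group mean and SD. MYB12 over MYB111 lies below 0 in the 3 mock libraries and above 0 in the 3 ABA libraries, and FLS1 over DFR is lower in all ABA libraries.

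The rest of the pathway was followed through 6 lists of 61 genes. For 6 loci the listed name is neither the symbol nor a synonym in the reference, and these were dropped. In edgeR's quasi-likelihood test, the dropped 3AT1 (log2 fold change 1.36, adjusted p = 0.0453), KFB-CHS (1.54) and KFB39 (2.58) were called higher. The dropped UGT89C1, UGT75C1 and 3AT2 were not called, so the drop removed no gene called lower. Of the 55 others 48 were tested. Of these, 17 were called higher (35.4%) and 12 lower (25.0%), against 31.0% and 29.4% over all tested loci. With library totals 12 of the 48 were higher and 14 lower. In that setting 21.2% of all tested loci were called higher and 44.8% lower. These shares are the background of every count with library totals below.

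In the general phenylpropanoid pathway, which supplies the precursor, 2 of 8 tested genes rose and 3 fell (median 0.11). The phenylalanine ammonia-lyase genes went separate ways. PAL4 rose by 2.76 ± 0.13, from 14.8 ± 2.30 to 101 ± 10.4 CPM. PAL2 fell by 1.08 ± 0.08, from 174 ± 12.9 to 82.3 ± 4.93 CPM, and PAL3 fell by 1.01 ± 0.12. PAL1, the most abundant, stood at 266 ± 43.5 and 300.3 ± 17.2 CPM and was not called. Without mock replicate 1 it was called higher at 0.29 (adjusted p = 0.0352 in edgeR), and without mock replicate 3 it stood at 0.04, not called. C4H, for the next enzyme, rose by 0.60 ± 0.15 but was not called under library-total scaling (adjusted p = 0.0544), and 4CL3, tied to flavonoid supply, fell by 0.91 ± 0.17.

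Among 5 other core flavonoid genes, 2 rose and 1 fell (median 0.25). CHIL, for a chalcone isomerase-like protein that assists chalcone synthase, rose by 0.96 ± 0.10, from 31.7, 36.3 and 26.7 CPM to 62.1, 62.1 and 60.0 CPM. The FLS1 paralogues FLS3 and FLS5 moved apart, FLS3 rising by 1.07 ± 0.11 and FLS5 falling by 2.47 ± 0.15, from 93.8 ± 11.8 to 16.9 ± 3.11 CPM. Of 3 tested genes of late anthocyanin and proanthocyanidin steps, 0 were called by any of edgeR, limma-voom and DESeq2, and 0 had an unadjusted p below 0.05 in edgeR's quasi-likelihood test. Without mock replicate 3, LDOX and GSTF12 of these 3 were called higher, with the limit given above.

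Of 9 tested genes of flavonoid decoration, 5 rose and 1 fell (median 0.85; 3 and 2 with library totals). SCPL10, for an acyltransferase that adds sinapate to anthocyanins, rose by 1.93 ± 0.26, from 10.8 ± 3.94 to 41.1 ± 1.15 CPM. BGLU10, for a glucosyltransferase of anthocyanins, rose by 1.01 ± 0.13, and OMT1, for an O-methyltransferase, by 0.92 ± 0.07. UGT78D1, whose enzyme adds rhamnose to flavonols, fell by 0.97 ± 0.09, from 80.7 ± 9.56 to 41.3 ± 1.29 CPM.

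Of 9 tested activators, 3 rose and 3 fell (median -0.06), or 1 and 4 with library totals. PIF3, a phytochrome-interacting bHLH factor, rose by 2.36 ± 0.09 to 141 ± 1.02 CPM. The bHLH genes EGL3 and MYC1 fell, at -0.53 ± 0.14 and -0.71 ± 0.18, and so did HYH, a relative of the light-response factor HY5, at -0.73 ± 0.18. TTG1, the WD-repeat partner of PAP1 and PAP2, stood at 22.67 ± 2.08 and 23.7 ± 1.24 CPM and was not called.

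Of 14 tested repressors of the pathway, 5 rose and 4 fell (median 0.21), also with library totals. MYB3, a repressor of phenylpropanoid genes, rose by 3.34 ± 0.11, from 8.53 ± 1.26 to 86.2 ± 7.77 CPM, and its relative MYB7 by 1.64 ± 0.12. MYBL2, an inhibitor of the anthocyanin complex, rose by 1.47 ± 0.19, and KFB50, for an F-box protein that marks PAL for breakdown, by 2.11 ± 0.19. MYB4, a repressor of C4H, fell by 0.48 ± 0.10, CPC, a small competitor of the MYB activators, by 1.09 ± 0.22, and the nitrogen-dependent repressors LBD38 and LBD39 by 1.63 ± 0.08 and 1.02 ± 0.10. In edgeR's quasi-likelihood test, TT8, 5MAT and the dropped 3AT1 had the adjusted p given above. Among the other genes named from these lists as having risen or fallen with all libraries, the largest adjusted p was 0.0110, that of EGL3. Genes called only with a library left out are not covered by this. Except for the dropped loci, the counts hold every called gene, with an adjusted p below 0.05. MYBL2, KFB50, TTG1 and PAL1 were picked after their values were seen.

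**Figure D5:**
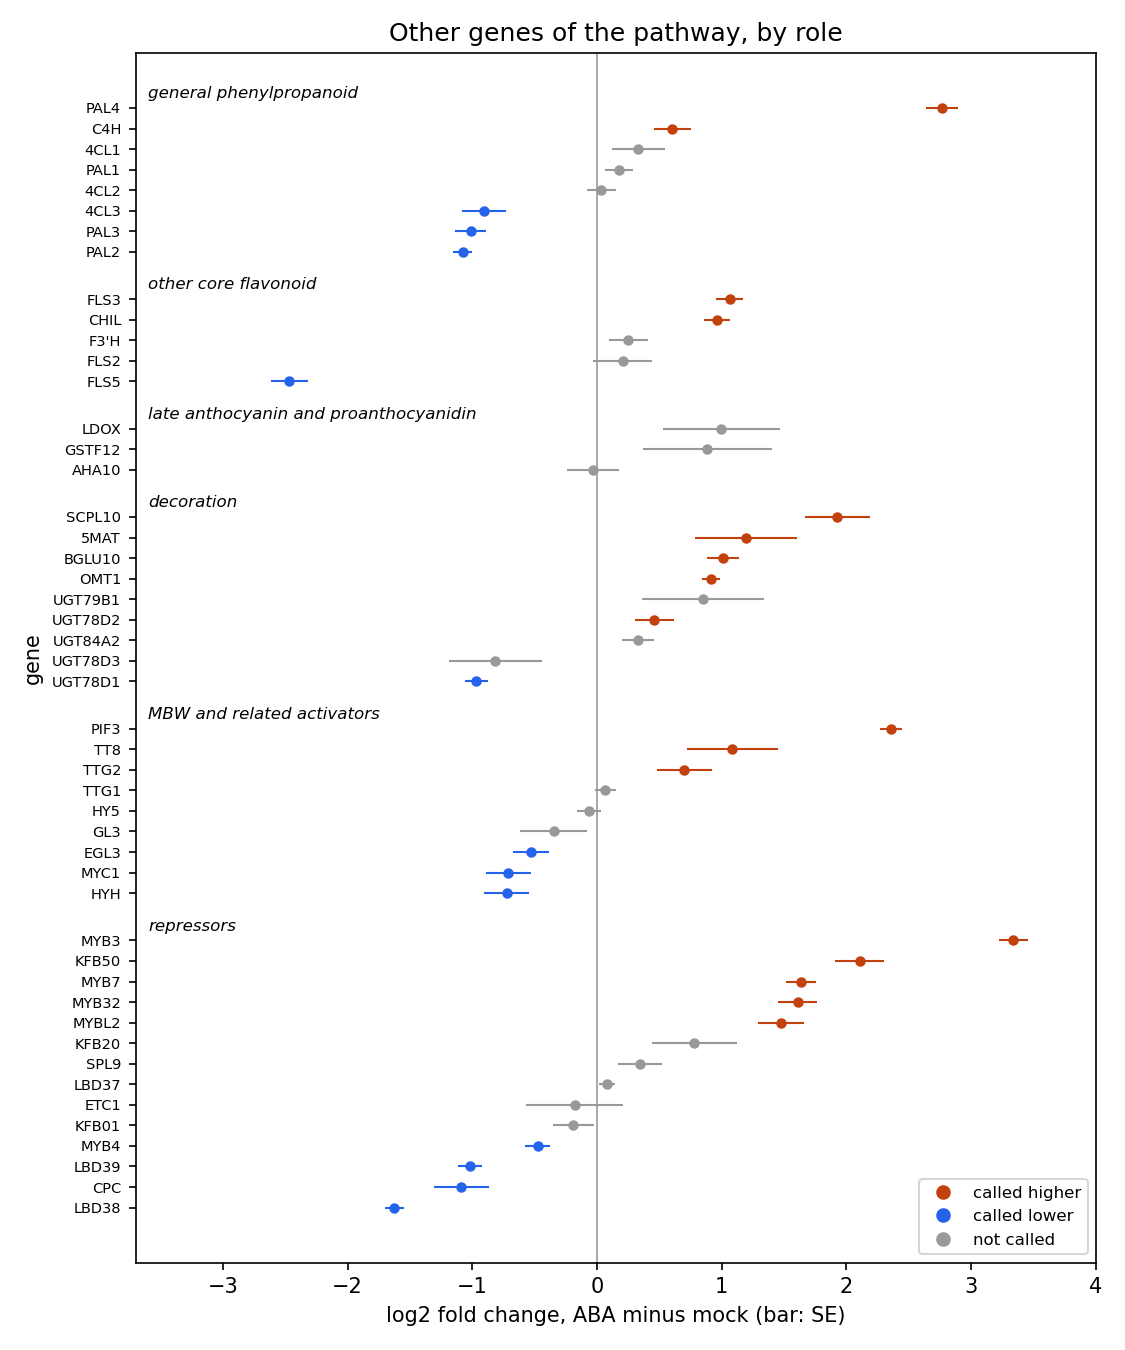
Log2 fold change of ABA against mock, with its SE, for the 48 other tested genes, by role. In each list but that of late steps, genes called higher and genes called lower stand side by side.

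Flavonoids are kept chiefly in the epidermis. Of 4 epidermis markers 3 were called higher and 1 lower, and their summed level ran from 322 to 411 CPM in mock and from 574 to 608 CPM in ABA. Most of this difference was that of 1 gene, FDH, at 167 ± 29.7 and 386 ± 14.5 CPM. ATML1 stood at 57.0 and 75.3 CPM, PDF1 at 50.6 and 81.6 CPM, and PDF2, the marker called lower, at 79.2 and 51.4 CPM. Of 5 root markers 0 were called higher and 1 lower (89.2 to 141 CPM and 114 to 122 CPM). Of 5 photosynthetic markers 0 were called higher and 1 lower (14282 to 16194 CPM and 12446 to 15425 CPM). With library totals, 2 epidermis markers were called higher and 1 lower. Of the root markers 1, and of the photosynthetic markers 3, were then called lower and 0 higher. No marker was at 0 in any library, and the part of the epidermis in the changes above was not tested. The lowest mock sum of the root markers and the highest of the epidermis markers were those of mock replicate 3. Against the other mock libraries, on the log2 scale as above, root markers stood at -0.80 to -0.11 there. Epidermis markers stood at 0.13 to 0.43 and photosynthetic markers at -0.44 to 0.001, so that library differed outside the anthocyanin genes too.

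The loci most like 4 of the members were found by Pearson's r of log2(CPM + 1) over the 6 libraries, among 15823 other loci with at least 5 CPM. For CHS they were AT5G22050 (r = 0.988), AT1G13570 (0.984) and AT3G29180 (0.979). For FLS1 they were AT4G08455 (0.985), ABCB15 (0.977) and AT1G11850 (0.973). For PAP2 they were ATSK12, AT3G17800 and AT1G59740, and for MYB111 AT5G14840, AT3G56480 and AT4G02820, all with r above 0.99. For PAP2 3363 loci had an r above 0.95 and for MYB111 1854, against 8 for CHS and 6 for FLS1. The 6 libraries fall into mock and ABA, and how much of each r this split sets was not tested.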

How the data were processed

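RNA came off a column kit and went into strand-specific mRNA libraries, per the labels' protocols. The submitters' processing notes name STAR, cutadapt, FastQC, DESeq2 and the build TAIR10; not given in the sources used here are versions, counting program and strand setting. The table as deposited holds raw counts of reads per locus with no normalization by the authors. Of its 9 columns, 3 match no sample label and were not used, so the planned iCB comparisons were not made.

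The counts went into edgeR 4.0.16 (R 4.3.3): filterByExpr, TMM scaling and the robust quasi-likelihood F test on mock and ABA, with Benjamini-Hochberg adjustment over 21092 loci. The SE is the log2 fold change over the root of F, and 95% intervals use the t distribution of the fit. Intervals from counts cover counting error only. Between replicates, chi-square per degree of freedom was 6.93 to 15.4, so no replicates agreed within sampling noise. The steps were tested on simulated data.

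Symbols, exon lengths, overlaps and promoter sequences came from RefSeq, TAIR10.1, in which all 10 members were found; the count table has no coordinates. The members and lists were chosen with earlier results of these data known. Named in the text are all members and, from each list, up to 4 called genes with the smallest adjusted p and called genes that moved against the majority. The loci dropped for their names are also named. Others are said to be picked after their values were seen. Alternatives were DESeq2 1.42.0, limma-voom (limma 3.58.1), other scalings, filters and thresholds, the replicate number as a block, and each library left out. The level of mock replicate 3 against the other mock libraries was added after seeing the data.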

Additional observations from a re-analysis of the deposited data

How the results depend on the processing

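Over the 9 tested members and up to 16 alternatives, 130 of 143 values kept their direction and their side of the threshold, 5 lost a call, 5 gained one and 3 changed sign. The stricter thresholds on adjusted p and on log2 fold change reuse the main fit. There no direction could change and no uncalled gene could gain a call, so part of the 130 was fixed in advance. The count of members called lower went from 2 to 4 with library totals and with upper-quartile factors, which added CHI and FLS1, and to 1 at an adjusted p below 0.01 or where the log2 fold change had to reach 1. With the latter, 6 other pathway genes were lower in place of 12, and over all loci 2471 were higher and 1847 lower in place of 6537 and 6205. The sign changes, none of them called, were CHS at -0.088 with library totals and -0.067 with upper-quartile factors, and FLS1 at 0.0081 without mock replicate 2. Outside the members, PAL1 stood at -0.052 and -0.032 with these scalings, and TTG1 at -0.16 and -0.14, or -0.0045 without mock replicate 1. Library totals moved the median by -0.23, upper-quartile factors by -0.21; over all loci 9459 were then lower with library totals. Leaving out 1 library gave 2 to 4 members higher and 2 lower, 14 to 21 other genes higher and 12 to 13 lower. The FLS1 to DFR difference then ran from -1.74 to -0.75, MYB12 to MYB111 from 1.96 to 2.28, PAP2 to PAP1 from 0.09 to 1.28 and CHS to CHI from 0.11 to 0.34. PAP2 was not tested under the filter of 5 CPM.

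Deviations of same-numbered mock and ABA libraries correlated at 0.0907, 0.136 and 0.287. Because 1 pair was below 0.1, the numbers were not taken as pairing, although each library correlated best with its own number. With the replicate number as a block, 3 members were higher and 2 lower, 18 other genes were higher and 12 lower, and the ratio differences were -1.34 (FLS1 to DFR), 0.65 (PAP2 to PAP1), 2.09 (MYB12 to MYB111) and 0.22 (CHS to CHI), where 3 pairs cannot give a p below 0.25. MYB11 and PAP2 were limited by counts of 9 and 14 over the mock libraries.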
